A study of Homo sapiens with 4 samples.

Results

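After 24 h in 1 nM paclitaxel, HCC1143 breast cancer cells differed widely in IFI6 and ISG15, a pair of interferon-stimulated genes. The early interferon responders described here are the 25% of cells with the highest joint level of both. Cells of the paclitaxel 24 h library with at least 20000 UMIs (unique molecular identifiers, each standing for 1 captured RNA molecule) were ranked by IFI6 plus ISG15 UMIs over all UMIs of the cell. The top 25% held 187 of 751 such cells, in a series of 3194 cell barcodes, and were set against the 187 cells of the lowest 25%, called low cells here. The ranking is a score with no natural gap, so the early responders are a range of cells and not a cell type.

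HCC1143 is an established human line from a triple-negative breast carcinoma, and all values come from this single line. Its cells were left to attach for 24 h and then kept in 1 nM paclitaxel for 24 h, in DMSO for 24 h, in 1 nM paclitaxel for 72 h or in DMSO for 72 h. Paclitaxel stabilises microtubules and DMSO is its solvent. RNA of single cells was captured in droplets (10x Chromium), and every group is 1 library.

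Type I and type III interferons bind receptors whose JAK kinases phosphorylate STAT proteins. Phosphorylated STAT2 enters a transcription factor complex with IRF9 that binds a repeated GAAA motif, the interferon-stimulated response element, upstream of its target genes. Many targets encode antiviral proteins or parts of antigen presentation, and in tumour cells the same programme can be switched on without a virus, for instance by nucleic acids in the cytosol.

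All 4 tables together hold 34997421 to 72057374 UMIs per library, and 751 of 778 barcodes of the paclitaxel 24 h library passed the minimum of 20000 UMIs. Because each group is 1 library, no difference has a replicate check and no p-value was computed. Levels are UMIs per 1000000 UMIs (CPM) of the summed cells, and the 95% intervals cover counting error only. Barcode sequences were shared by 4 cells of the paclitaxel 24 h and DMSO 24 h libraries, of which 1 was an early responder and 2 were low cells. The epithelial list was measured in full in both groups of cells, with 3 of 10 genes at least 1.5-fold higher in early responders. Of 12 markers of T, NK and B cells 1 was in the table, and its level was 1.34 CPM in early responders and 1.998 CPM in low cells. Myeloid markers (5 of 12 in the table) summed to 11.6 CPM in early responders and 12.8 CPM in low cells. Fibroblast markers (2 of 10) summed to 7.62 CPM in early responders and 12.1 CPM in low cells. Endothelial markers (6 of 8) summed to 81.1 CPM in early responders and 69.6 CPM in low cells, of which the single gene EGFL7 gave 67.6 CPM in early responders and 59.1 CPM in low cells.

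The sequences upstream of IFI6 and ISG15 are printed to show the motif of the response element, with those of 4 other interferon-regulated genes that the results below turn on. Each stretch is RefSeq sequence on GRCh38.p14, read 5′ to 3′ on the strand of the gene, and capitals mark every match to GAAA, any 2 bases and a further GAAA on either strand, with overlapping matches joined.
IFI6 (chr1:27672261-27672363, minus strand): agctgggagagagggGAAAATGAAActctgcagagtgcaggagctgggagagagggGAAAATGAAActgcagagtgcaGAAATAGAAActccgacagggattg
ISG15 (chr1:1013369-1013414, plus strand): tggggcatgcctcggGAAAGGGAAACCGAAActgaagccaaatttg
BST2 (chr19:17405730-17405775, minus strand): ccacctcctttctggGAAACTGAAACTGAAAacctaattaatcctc
IFI27 (chr14:94110613-94110665, plus strand): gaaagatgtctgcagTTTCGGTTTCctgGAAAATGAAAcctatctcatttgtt
LGALS3BP (chr17:78979957-78979996, minus strand): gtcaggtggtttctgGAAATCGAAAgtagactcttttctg
B2M (chr15:44711358-44711403, plus strand): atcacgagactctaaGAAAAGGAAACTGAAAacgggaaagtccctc

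IFI6 holds 3 matches, ISG15, BST2, IFI27 and B2M hold 2 each, and LGALS3BP holds 1. In windows from 250 bases upstream to 50 bases downstream of the start, a match was present in 996 of 27305 RefSeq promoters (3.65%) and in 165 of the 6236 measured genes with a promoter in the table (2.65%). Among measured interferon-stimulated genes it was present in 18 of 33 (54.5%). Genes at least 1.5-fold higher in early responders held it in 38 of 504 promoters (7.54%). Without the interferon lists the share was 18 of 466 (3.86%). Genes at least 1.5-fold lower held it in 20 of 906 promoters (2.21%). A match describes the letters in the window and does not show that a factor was bound. The promoter of CCL28, a chemokine gene described below, held no match in this window.

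IFI6 encodes a small interferon-induced membrane protein and ISG15 a ubiquitin-like modifier. Their levels chose the cells, so the values are a description. The joint level was 1108 to 6336 CPM per cell in early responders, with a median of 1722 CPM, and 29.6 to 303 CPM in low cells, with a median of 208 CPM. The cells just inside the responder limit had 1108.38 and 1113.40 CPM, and those just outside had 1108.11 and 1106.50 CPM. The highest of the low cells had 303.188 CPM and the next cell above had 307.337 CPM. Within 10% of these limits lay 55 cells at the upper one and 50 at the lower one. Over the 4 rank groups of 25% each, from lowest to highest, IFI6 stood at 44.4, 101, 212 and 511 CPM and ISG15 at 161, 321, 602 and 1437 CPM. The median early responder held 27 IFI6 and 75 ISG15 UMIs, and the median low cell 3 and 11.

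**Figure D1:**
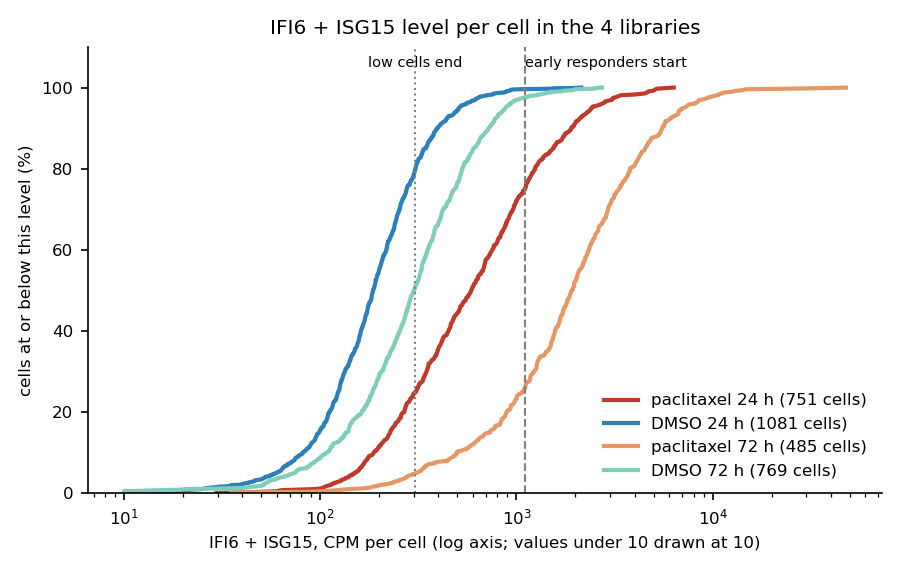
Cumulative share of cells (%) by IFI6 plus ISG15 level per cell (CPM, log axis) in the 4 libraries; the dashed line marks where the early responders of paclitaxel 24 h start and the dotted line where its low cells end. The paclitaxel 24 h curve (median 587 CPM) lies between that of paclitaxel 72 h (1930 CPM) and those of DMSO 72 h (301 CPM) and DMSO 24 h (186 CPM).

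Levels as high as in early responders were rare in DMSO. In the paclitaxel 72 h library 359 of 485 cells lay above their lower limit (74.0%, exact binomial interval 69.9 to 77.9%). In DMSO the limit was passed by 20 of 769 cells at 72 h (2.60%, 1.596 to 3.99%) and 5 of 1081 cells at 24 h (0.463%, 0.150 to 1.08%). Conversely, 23 paclitaxel 72 h cells (4.74%) were no higher than the upper limit of the low cells, as were 387 DMSO 72 h cells (50.3%) and 859 DMSO 24 h cells (79.5%). The low cells of paclitaxel at 24 h thus covered the range of most DMSO 24 h cells.

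The relative spread between cells exceeded that of DMSO for ISG15 but not for IFI6. With each cell thinned to 20000 UMIs, ISG15 averaged 12.6 UMIs per cell in the paclitaxel 24 h library and 3.67 in DMSO 24 h, and its variance was 14.8 times this mean in paclitaxel and 2.66 times in DMSO. Since this ratio grows with the mean, the variance beyond counting noise was also divided by the squared mean. That gave 1.10 for ISG15 in paclitaxel and 0.452 in DMSO at 24 h, and 2.29 in paclitaxel and 0.655 in DMSO at 72 h. A single paclitaxel 72 h cell held 954 ISG15 UMIs, and without it the value there was 1.31. For IFI6, which averaged 4.67 UMIs in paclitaxel and 0.782 in DMSO at 24 h, the same measure was 1.49 in paclitaxel and 1.91 in DMSO, and at 72 h it was 0.903 in paclitaxel and 1.24 in DMSO.

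Each ranking gene also separated cells chosen by the other. When cells were ranked by IFI6 alone, ISG15 stood at 1275 CPM in the top cells and 230 CPM in the lowest cells. The log2 ratio was 2.47 (counting interval 2.42 to 2.52), and 140 of 187 top cells were shared with the joint ranking. When cells were ranked by ISG15 alone, IFI6 stood at 438 CPM in the top cells and 70.2 CPM in the lowest cells. The log2 ratio was 2.64, with 163 top cells shared. The top cells of these single-gene rankings are thus not exactly the early responders. Cells were also ranked on a random 50% of their UMIs and measured in the rest. IFI6 then had 491 CPM in the top cells and 51.9 CPM in the lowest cells. ISG15 had 1413 CPM in the top cells and 182 CPM in the lowest cells. Both genes belong to the ranking, so these values describe it and are no separate evidence of a response.

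Most other measured interferon-stimulated genes were higher along with the ranking pair. A gene is called measured with a mean of at least 10 CPM over both groups of cells, and it is counted as higher or lower in early responders from a 1.5-fold difference on. Of 69 listed interferon-stimulated genes 60 were in the table and 40 were measured, of which 27 were higher in early responders and 0 lower, with a median log2 ratio of 1.28. Over all 7997 measured genes, 700 (8.75%) were higher and 1156 (14.5%) lower, with a median of -0.10. With totals taken without ribosomal protein and mitochondrial genes the counts were 1686 higher and 806 lower, and the median was 0.09. With the median of gene ratios as the scale they were 947 higher and 847 lower. Of the measured members, 10 had under 10 CPM in low cells and so passed the minimum only through the early responders. All 10 were higher, and the median of 1.28 includes them. Among the other 30, 17 were higher. Over members averaging at least 50 CPM, none of them among these 10, the median was 0.94. The 20 members under 10 CPM in the mean were all at least 1.5-fold higher in early responders, against 27% of all genes under 10 CPM.

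BST2, which tethers budding viruses to the cell surface, had the highest ratio of all genes averaging 50 CPM or more, ribosomal and mitochondrial genes and the ranking pair left out. Single cells ranged from 0 to 621 CPM with a median of 116 CPM in early responders, and from 0 to 133 CPM with a median of 0 in low cells. The summed level was 143 CPM in early responders and 12.6 CPM in low cells (log2 ratio 3.51, 3.30 to 3.72). The cells of both ends overlapped, and the responder was higher in 83.1% of all pairs of 1 early responder and 1 low cell.

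Several genes were low or close to absent in low cells. IFI44L, an interferon-induced gene of unsettled function, stood at 26.6 CPM in early responders and 0.363 CPM in low cells, where 6 UMIs were counted (log2 ratio 6.20, 5.06 to 7.65). Its relative IFI44 stood at 21.3 CPM in early responders and 1.15 CPM in low cells. OAS1, a synthetase of the oligoadenylates that activate RNase L, stood at 19.1 CPM in early responders and 1.03 CPM in low cells. IFI27 stood at 49.4 CPM in early responders and 1.94 CPM in low cells, but 1 early responder held 15.1% of the UMIs of its group. PARP14, an ADP-ribosyltransferase, stood at 45.4 CPM in early responders and 5.57 CPM in low cells (3.03).

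OAS3 and LGALS3BP, at higher levels in low cells than these genes, had smaller ratios. OAS3 stood at 49.9 CPM in early responders and 13.0 CPM in low cells (log2 ratio 1.95). LGALS3BP, a secreted galectin-binding glycoprotein, stood at 127 CPM in early responders and 38.6 CPM in low cells (1.72). The lowest ratio among measured members was that of WARS, a tryptophan tRNA ligase, at 22.95 CPM in early responders and 31.7 CPM in low cells (-0.46). IFITM2 and IFITM3 share near-identical sequence, so their separate values are uncertain.

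**Figure D2:**
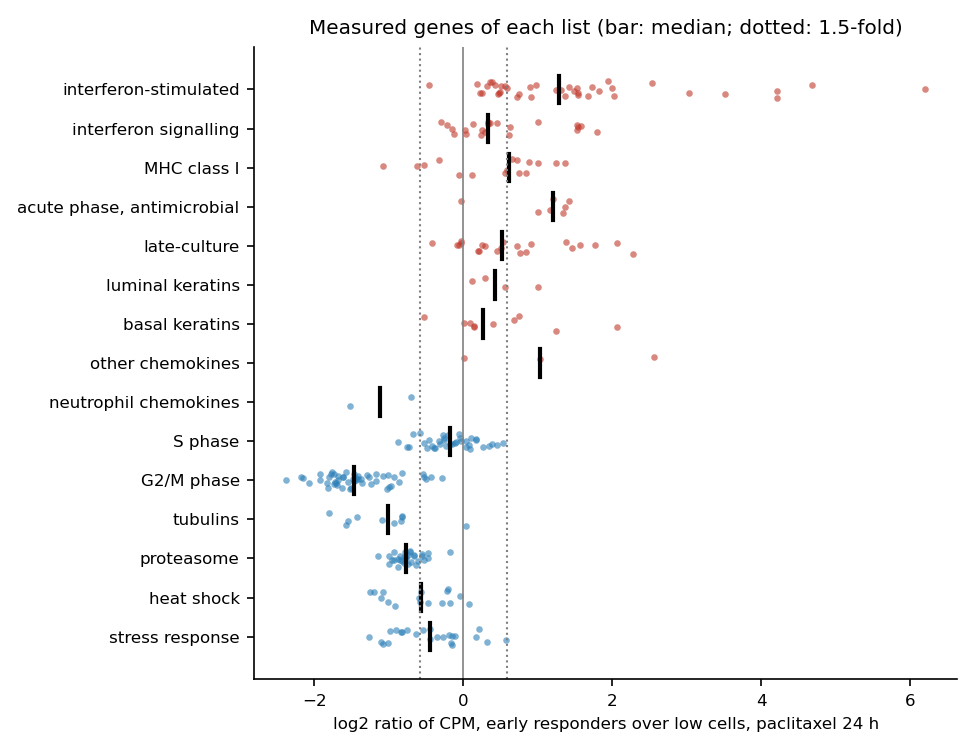
Log2 ratio of CPM (x axis), early responders over low cells of paclitaxel 24 h, for every measured gene of 15 lists (rows); black bars are list medians and dotted lines mark 1.5-fold. The median of interferon-stimulated genes (1.28) lies to the right of 0, with WARS (-0.46) on the left, and the medians of G2/M genes (-1.47), tubulins (-1.01) and proteasome subunits (-0.76) lie to the left. The interferon-stimulated median includes 10 genes that passed the minimum only through the early responders.

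The signalling genes upstream of this programme were partly higher. Of 22 measured interferon signalling genes 8 were higher in early responders and 0 lower, with a median log2 ratio of 0.34. Of the 8, 3 had under 10 CPM in low cells and passed the minimum only through the early responders, IRF9 and IFIH1 among them, and 5 of the other 19 were higher. The higher genes include STAT2 and IRF9, whose genes are themselves interferon targets. STAT2 ranged over cells from 0 to 262 CPM with a median of 46.3 CPM in early responders, and from 0 to 118 CPM with a median of 15.97 CPM in low cells. The sum over cells was 55.0 CPM in early responders and 18.9 CPM in low cells (log2 ratio 1.54, 1.35 to 1.74). IRF9 stood at 17.7 CPM in early responders and 5.08 CPM in low cells. IRF7, a factor that amplifies interferon production, had a log2 ratio of 1.53. IFIH1, a cytosolic sensor of double-stranded RNA, had one of 1.58.

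Antigen presentation genes were mostly higher, with the endoplasmic reticulum chaperones of the pathway at the other end. Of 16 measured MHC class I pathway genes 9 were higher and 2 lower, with a median of 0.62. B2M, the invariant light chain of class I molecules, ranged over cells from 80.0 to 3454 CPM with a median of 697 CPM in early responders, and from 0 to 1239 CPM with a median of 265 CPM in low cells. Its summed level was 724 CPM in early responders and 280 CPM in low cells (log2 ratio 1.37, 1.32 to 1.42), with the responder higher in 85.2% of pairs. PSMB9, an immunoproteasome subunit, had a log2 ratio of 1.25, and PSME1, a proteasome activator, of 1.01. CALR, the chaperone calreticulin, stood at 175 CPM in early responders and 369 CPM in low cells (-1.07). Reads of the classical HLA genes are near-identical between loci, so no value of 1 such locus is given.

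The same ranking, with the highest 25% set against the lowest 25%, separated more genes in the paclitaxel 72 h library than in either DMSO library. In the paclitaxel 72 h library 9.41% of 8547 measured genes were higher and 4.49% lower in the highest cells, and 48 of 51 interferon-stimulated genes were higher (median 1.27). In the DMSO 72 h library 3.07% of 7850 genes were higher and 0.841% lower, and 13 of 35 interferon-stimulated genes were higher (median 0.44). In the DMSO 24 h library 1.38% of 8092 genes were higher and 0.494% lower, and 3 of 27 interferon-stimulated genes were higher (median 0.14). No interferon-stimulated gene was lower in any of these 3 libraries. Genes were measured anew in each library from its own highest and lowest cells, so the counts rest on different sets of genes. Some could pass the minimum of 10 CPM through the highest cells only. IFI44L did so in paclitaxel at 72 h, at 97.1 CPM in the highest and 8.62 CPM in the lowest cells. BST2 had a log2 ratio of 1.98 in the paclitaxel 72 h library, 1.60 in the DMSO 72 h library and 1.02 in the DMSO 24 h library. With few IFI6 UMIs per DMSO cell, the ranking there carries more counting noise than in paclitaxel.

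Few early responders were called G2/M and most were called G1. Phases were called per cell from S phase and G2/M gene scores after thinning to 20000 UMIs. Of early responders 54.5% (47.1 to 61.8%) were called G1, 36.9% (30.0 to 44.2%) S and 8.56% (4.97 to 13.5%) G2/M. Of low cells 12.8% (8.40 to 18.5%) were called G1, 27.8% (21.5 to 34.8%) S and 59.4% (51.9 to 66.5%) G2/M. Between the ends, G1 calls made up 31.4% of the second rank group and 40.2% of the third, and G2/M calls 27.7% and 24.9%. Seen the other way, the median joint level of IFI6 and ISG15 was 857 CPM in 261 cells called G1, 606 CPM in 264 called S and 315 CPM in 226 called G2/M. The same ranking moved G1 calls in the same direction in the other libraries. G1 shares in the highest and lowest 25% were 79.3% and 56.2% in paclitaxel at 72 h. They were 63.5% and 45.8% in DMSO at 72 h, and 20.4% and 10% in DMSO at 24 h.

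**Figure D3:**
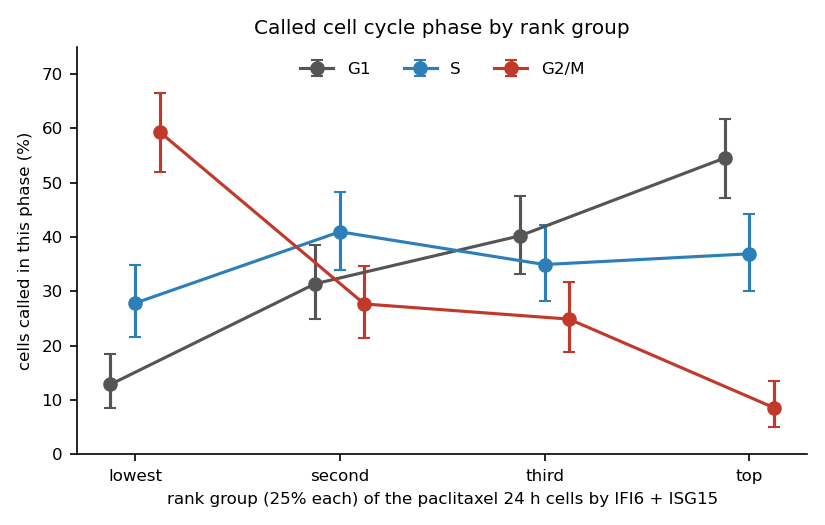
Share of cells (%) called G1, S or G2/M in each of the 4 rank groups of the paclitaxel 24 h cells by IFI6 plus ISG15 level, from lowest to top; bars are exact binomial 95% intervals. G1 calls climb from group to group and make up 54.5% of the early responders (top), where G2/M calls make up 8.56%.

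Depth and ribosomal content moved with the ranking. The median cell held 55271 UMIs in early responders and 78493 UMIs in low cells, and 26 early responders and 67 low cells exceeded 100000 UMIs. The median share of UMIs from ribosomal protein genes was 34.5% in early responders and 28.0% in low cells, with 34.4% and 35.3% in the groups between. Mitochondrial genes took 7.48% in early responders and 6.14% in low cells. Their part in the differences between genes was not tested beyond the other rankings and scales given here.

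Mitotic genes were lower in early responders. Of 52 measured G2/M genes 47 were lower and 0 higher, with a median log2 ratio of -1.47, and of the 47 with at least 10 CPM in both groups of cells 42 were lower. These genes entered the phase calls, so the count and the shares of cells are not separate evidence. CCNB1, the cyclin that starts mitosis and not a gene of the scoring list, stood at 13.2 CPM in early responders and 74.5 CPM in low cells (log2 ratio -2.49, -2.74 to -2.25). PLK1, a mitotic kinase also outside the scoring list, had a log2 ratio of -2.48. AURKA, the spindle pole kinase, had one of -2.37. CDC20, an activator of the anaphase-promoting complex, had one of -2.17. UBE2S, the chain-elongating ubiquitin conjugase of the same complex, ranged over cells from 0 to 1955 CPM with a median of 159 CPM in early responders, and from 0 to 2456 CPM with a median of 880 CPM in low cells. MKI67, a proliferation marker, had a log2 ratio of -1.44 and TOP2A, a DNA topoisomerase, of -1.51. With cells ranked within their called phase and pooled, the G2/M median was -0.53, MKI67 had -0.42 and TOP2A -0.31. The pooled values hide unequal phases. MKI67 had -1.34 in G1, -0.31 in S and -0.21 in G2/M cells, and TOP2A had -0.44, -0.07 and -0.16.

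Few S phase genes passed 1.5-fold. Of 37 measured S phase genes 0 were higher and 4 lower, with a median of -0.18. Of all measured genes 8.75% were higher and 14.5% lower. PCNA, the sliding clamp of DNA replication, stood at 68.5 CPM in early responders and 66.5 CPM in low cells. TYMS, which makes thymidylate, stood at 184 CPM in early responders and 305 CPM in low cells (-0.73, but -0.21 with cells ranked within phases and pooled). In single phases TYMS had -1.29 in G1, -0.15 in S and -0.0010 in G2/M cells. CCND1, the G1 cyclin D1, had a log2 ratio of 0.16. CDKN1A, the p53-induced cell cycle inhibitor p21, had one of 0.04. Of 28 measured cell cycle regulators, CCNB1 and PLK1 among them, 1 was higher and 8 lower (median -0.10). Of 16 measured p53 targets 2 were higher and 1 lower.

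In each phase taken by itself, interferon-stimulated genes again had positive median ratios. For this, the highest and lowest 25% were formed within the cells called G1 (65 cells each), S (66 each) and G2/M (56 each). Median depth in the highest and lowest cells was 45899 and 45790 UMIs in G1, 69822 and 58060 in S, and 70216.5 and 102810 in G2/M. No interval was computed for values within phases. The median log2 ratio of interferon-stimulated genes was 1.14 in G1, 0.87 in S and 0.86 in G2/M cells, beside medians of all genes of 0.06, -0.02 and -0.11. BST2 had log2 ratios of 2.51, 2.64 and 2.85 in the same order. CCNB1 remained below 0 in all 3 phases, at -0.81 in G1, -0.84 in S and -1.18 in G2/M cells. G2/M genes had medians of -0.44, -0.25 and -0.43. S phase genes, which also entered the phase calls, had medians of -0.51, 0.05 and 0.11. In G1 cells 9 of 23 measured S phase genes were lower and 1 higher, beside 400 lower and 752 higher of all 7860 measured genes.

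Most tubulin and proteasome genes, and some chaperone and stress genes, were lower in early responders. Of 10 measured tubulins 9 were lower and 0 higher, with a median log2 ratio of -1.01. TUBA1B, an alpha-tubulin, stood at 291 CPM in early responders and 1009 CPM in low cells (-1.79, -1.85 to -1.74), although near-identical copies make the split among TUBA1A, TUBA1B and TUBA1C uncertain. TUBB4B, a beta-tubulin, had a log2 ratio of -1.58. Of 31 constitutive proteasome subunits 25 were lower and 0 higher (median -0.76), with PSMD14, the deubiquitinase of the proteasome lid, at -1.14. Of 16 measured heat shock genes 7 were lower and 0 higher (median -0.57), with the chaperone HSPA8 at -1.19. Of 24 measured stress and unfolded protein response genes 10 were lower and 0 higher (median -0.44), among them PSAT1 of serine synthesis at -1.26 and the amino acid transporter SLC7A5 at -1.10. ODC1, the first enzyme of polyamine synthesis, stood at 51.1 CPM in early responders and 200 CPM in low cells (-1.97).

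Within phases these groups had unequal ratios. Proteasome subunits had a median of -0.21 in G1, -0.61 in S and -0.93 in G2/M cells. Tubulins had -0.77, -0.86 and -0.42. TUBA1B had -1.79, -1.74 and -0.80, and ODC1 had -1.38, -2.04 and -1.75.

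Keratins did not move as 1 block. Of 10 measured basal-type and related keratins 4 were higher in early responders and 0 lower, with a median log2 ratio of 0.27. The 4 were KRT15, KRT23, KRT81 and KRT80. KRT15, a keratin of basal and progenitor epithelial cells on chromosome 17 (41513743 to 41522529, GRCh38, minus strand), ranged over cells from 0 to 3018 CPM with a median of 139 CPM in early responders, and from 0 to 739 CPM with a median of 29.2 CPM in low cells. The sum over cells was 232 CPM in early responders and 55.5 CPM in low cells (2.07, 1.96 to 2.18), and over the 4 rank groups it stood at 55.5, 130, 201 and 232 CPM. KRT23 stood at 94.6 CPM in early responders and 39.8 CPM in low cells (1.25). KRT81, a hair-type keratin, stood at 333 CPM in early responders and 198 CPM in low cells (0.75), where 1 cell held 29.8% of the UMIs. With cells ranked by IFI6 alone KRT81 had 0.49 and the median of the list was -0.0659, and KRT80 (0.68) fell short of 1.5-fold in 5 alternatives.

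The classical basal pair was nearly level. KRT5 stood at 119 CPM in early responders and 118 CPM in low cells. KRT14, its partner, stood at 431 CPM in early responders and 391 CPM in low cells (0.14). KRT17 had a log2 ratio of 0.40, KRT16 of 0.14, KRT6B of 0.09 and KRT6A, a keratin of activated epithelium, of -0.53. For KRT6A 1 cell held 17.4% of the UMIs in early responders and 1 held 16.4% in low cells. Its ratio was -2.11 with cells ranked by IFI6 alone and -0.04 with cells ranked within classes of total UMIs. KRT14, KRT16 and KRT17 are close paralogs, as are KRT6A and KRT6B, so the counting may have split reads between them.

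Of 4 measured luminal keratins 1 was higher in early responders and 0 were lower, with a median of 0.43. KRT19 ranged over cells from 29.8 to 6660 CPM with a median of 611 CPM in early responders, and from 0 to 2521 CPM with a median of 281 CPM in low cells. Its summed level was 712 CPM in early responders and 355 CPM in low cells (1.00, 0.95 to 1.05). With cells ranked within phases KRT19 had 0.57. KRT7 had a log2 ratio of 0.56, KRT8 of 0.29 and KRT18 of 0.12. Of 10 other measured luminal genes 6 were higher and 0 lower (median 0.69). They include ELF3, an epithelial transcription factor, at 239 CPM in early responders and 100.003 CPM in low cells, and SLPI, a secreted protease inhibitor, at 185 CPM in early responders and 71.6 CPM in low cells.

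Taken by phase, the keratin ratios shifted. KRT15 had log2 ratios of 0.67 in G1, 0.97 in S and 1.86 in G2/M cells. KRT23 had -0.35, 0.94 and 1.93. KRT6A had -1.82, -0.36 and 0.03. Basal keratins had medians of -0.25, 0.25 and 0.36, so the direction in G1 cells was opposite to that in all cells. KRT19 had 0.37, 0.78 and 0.40. Luminal keratins had medians of 0.41, 0.25 and -0.02, so their median was not positive in G2/M cells.

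The chemokine genes went in both directions. CCL28, an epithelial chemokine of mucosal surfaces on chromosome 5 (43376645 to 43412391, GRCh38, minus strand), ranged over cells from 0 to 830 CPM with a median of 79.2 CPM in early responders, and from 0 to 244 CPM with a median of 11.2 CPM in low cells. The sum over cells was 116 CPM in early responders and 19.7 CPM in low cells (log2 ratio 2.56, 2.38 to 2.74). Over the 4 rank groups it stood at 19.7, 56.0, 90.0 and 116 CPM. CX3CL1, a membrane-bound chemokine, stood at 25.9 CPM in early responders and 12.7 CPM in low cells (1.03, and 0.55 without cells above 100000 UMIs). CXCL16 stood at 67.4 CPM in early responders and 66.7 CPM in low cells. The other 7 listed chemokines of this group found in the table had means under 10 CPM.

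Both measured chemokines that attract neutrophils were lower in early responders. CXCL8 (interleukin 8), on chromosome 4 (73740506 to 73743716, GRCh38, plus strand), ranged over cells from 0 to 577 CPM with a median of 0 in early responders, and from 0 to 2998 CPM with a median of 17.3 CPM in low cells. Summed, it stood at 34.8 CPM in early responders and 100.003 CPM in low cells (-1.52, -1.68 to -1.36), and 1 cell held 15.6% of the UMIs in early responders and 1 held 10.1% in low cells. CXCL1 stood at 121 CPM in early responders and 197 CPM in low cells (-0.70, -0.79 to -0.61). Neither followed the ranking step by step. From the low cells to the early responders CXCL8 stood at 100.003, 67.3, 103.7 and 34.8 CPM, and CXCL1 at 197, 181, 211 and 121 CPM. The early responders thus stood below each of the other 3 groups, which followed no order.

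**Figure D4:**
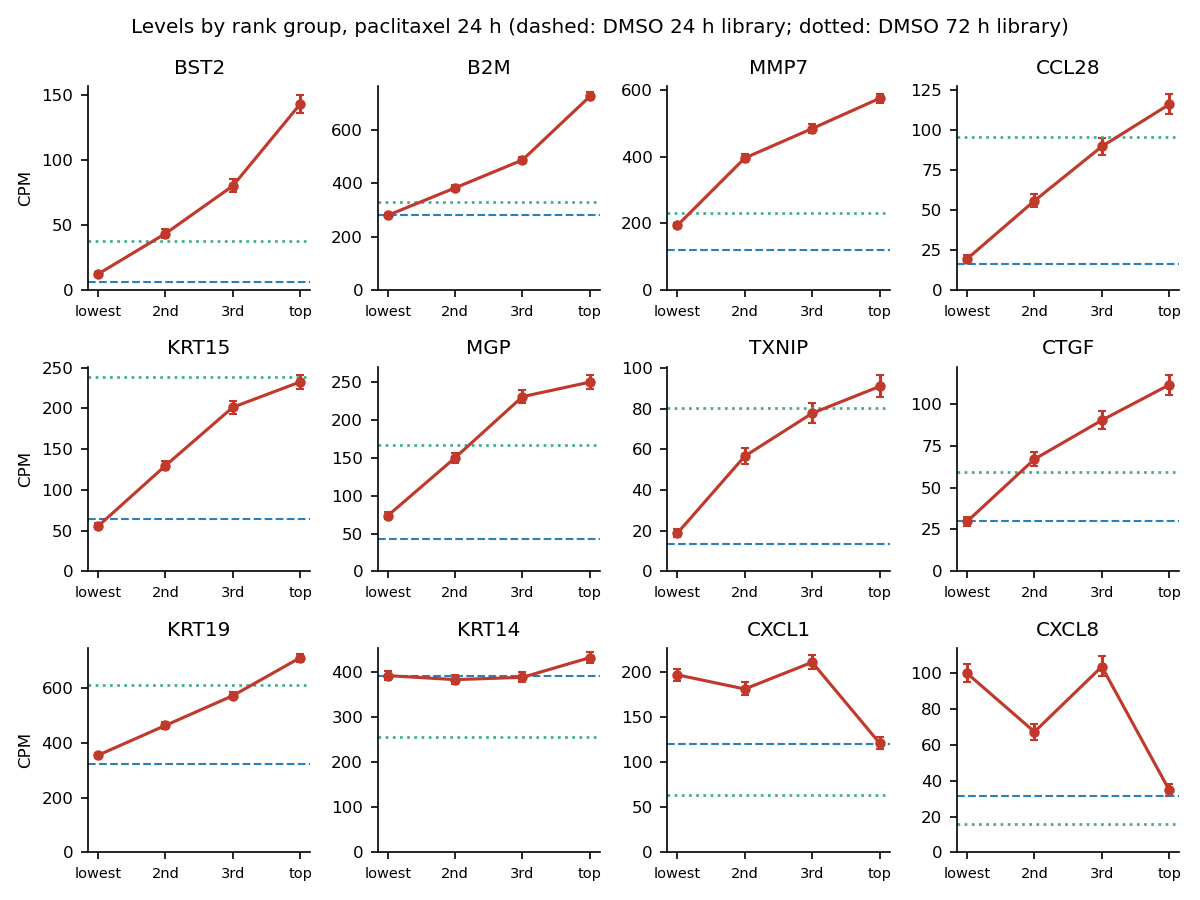
Level (CPM, y axis from 0) of 12 genes in the 4 rank groups of the paclitaxel 24 h cells, from lowest (low cells) to top (early responders), with 95% Poisson intervals; the dashed line is the level in the whole DMSO 24 h library and the dotted line that in the DMSO 72 h library. CCL28, KRT15 and TXNIP climb from within 1.5-fold of the DMSO 24 h line to within 1.5-fold of the DMSO 72 h line, while CXCL8 and CXCL1 are lowest in early responders.

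The direction of the neutrophil-attracting chemokines was not the same in all called phases. CXCL8 had log2 ratios of -1.74 in G1, -1.96 in S and 1.59 in G2/M cells. CXCL1 had -0.35, -0.57 and 1.24, of which only the G2/M value passed 1.5-fold. These values rest on 56 to 66 cells per end, and the share held by single cells was not computed within phases. With cells ranked within their phase and pooled, CXCL8 had -0.23 and CXCL1 had 0.28, and CXCL1 fell short of 1.5-fold in 5 of 18 alternatives. CCL28 had positive ratios in all 3 phases, at 1.09, 2.22 and 2.53.

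Inflammatory genes outside the chemokines were mixed. Of 15 measured NF-kappaB type genes 3 were higher and 1 lower (median 0.18), and the 1 lower gene, IL32, was under 10 CPM in early responders. C15orf48, a small mitochondrial protein induced in inflammation, had a log2 ratio of 1.29, or 0.47 with cells ranked by IFI6 alone. IL32, a cytokine gene, had -1.02, or 0.0319 between the highest and lowest 10%. Of 7 measured acute phase and antimicrobial genes 6 were higher and 0 lower (median 1.20). They include S100A9, a calcium-binding alarmin, at 28.1 CPM in early responders and 11.1 CPM in low cells, and WFDC2, a secreted epithelial protein, at 124 CPM in early responders and 54.2 CPM in low cells.

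Some genes that distinguish longer cultures were higher in early responders. The late-culture list was drawn up from earlier results of these libraries, so its direction is no independent evidence. Of its 22 measured genes 10 were higher and 0 lower, with a median log2 ratio of 0.52. MGP, matrix Gla protein, ranged over cells from 0 to 2887 CPM with a median of 132 CPM in early responders, and from 0 to 1337 CPM with a median of 34.5 CPM in low cells. Summed, it stood at 249.97 CPM in early responders and 73.5 CPM in low cells (1.76, 1.67 to 1.86). TXNIP, an inhibitor of thioredoxin and of glucose uptake, stood at 91.0 CPM in early responders and 18.8 CPM in low cells (2.27). MMP7, the protease matrilysin, stood at 574 CPM in early responders and 194 CPM in low cells (1.56), GABRP, a GABA receptor subunit, at 90.5 CPM in early responders and 32.9 CPM in low cells (1.46). Among abundant translation genes of the list EIF4B had 0.76, EEF2 0.54 and NACA 0.20. With totals taken without ribosomal protein and mitochondrial genes EIF4B had 1.23, EEF2 0.90 and NACA 0.48, which puts EEF2 past 1.5-fold.

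For several genes, early responders lay near the level of the DMSO 72 h library and low cells near that of the DMSO 24 h library. KRT15 averaged 239 CPM in DMSO at 72 h and 64.3 CPM in DMSO at 24 h, where early responders had 232 CPM and low cells 55.5 CPM. CCL28 had 96.0 CPM in DMSO at 72 h and 16.6 CPM in DMSO at 24 h, beside 116 CPM in early responders and 19.7 CPM in low cells. TXNIP had 80.6 CPM in DMSO at 72 h and 13.3 CPM in DMSO at 24 h. ODC1 had 58.3 CPM in DMSO at 72 h and 226 CPM in DMSO at 24 h, and UBE2S had 329 CPM in DMSO at 72 h and 851 CPM in DMSO at 24 h, where early responders had 267 CPM of UBE2S and low cells 1053 CPM. MGP, MMP7, CXCL8 and KRT14 did not follow this. MGP had 167 CPM in DMSO at 72 h and 42.5 CPM in DMSO at 24 h, where early responders had 249.97 CPM and low cells 73.5 CPM. MMP7 had 232 CPM in DMSO at 72 h and 122 CPM in DMSO at 24 h, where early responders had 574 CPM and low cells 194 CPM. Low cells had 100.003 CPM of CXCL8, above both DMSO 72 h (15.9 CPM) and DMSO 24 h (31.7 CPM). KRT14 was 256 CPM in DMSO at 72 h and 391.5 CPM in DMSO at 24 h, beside 431 CPM in early responders and 391 CPM in low cells. Called phases differed between these groups as well. In DMSO, 51.6% of cells at 72 h and 14.1% at 24 h were called G1, and 21.5% and 40.1% G2/M. Of early responders 54.5% and of low cells 12.8% were called G1, and 8.56% and 59.4% G2/M. The part of phase in the likeness to the DMSO libraries was not tested.

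The comparison was extended to all genes measured. Of 7814 genes measured in both comparisons, 503 (6.44%) were at least 1.5-fold higher and 1990 (25.5%) at least 1.5-fold lower in DMSO at 72 h than in DMSO at 24 h. Of the 503, 286 (56.9%) were higher and 6 (1.19%) lower in early responders, and these 286 were 43.7% of the 655 genes higher there. Of the 1990, 934 (46.9%) were lower and 3 higher in early responders, making up 82.7% of the 1130 genes lower there. Of the other 5321 genes 6.88% were higher and 3.57% lower. Leaving out the S and G2/M phase lists kept all 503 higher genes, so the first share could not change. It kept 1915 of the 1990 lower genes, with a second share of 46.4%. This step removes listed genes and does not even out the phases of the cells compared. Within phases the relation was weaker in G1 cells. Genes higher in DMSO at 72 h had a median log2 ratio of 0.27 in G1, 0.42 in S and 0.68 in G2/M cells, and genes lower at 72 h had -0.20, -0.34 and -0.55. The late-culture list had medians of 0.01, 0.20 and 0.48 in these phases.

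The same ranking in the other libraries gave late-culture genes a median log2 ratio of -0.26 for paclitaxel at 72 h, -0.12 for DMSO at 72 h and -0.0017 for DMSO at 24 h. KRT15 had ratios of 0.79, 0.24 and 0.71 in the same order of libraries. CCL28 had 1.12, 0.16 and 0.50. MGP had 0.02, 0.03 and 0.04. The difference of these ratios between libraries was not tested.

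**Figure D5:**
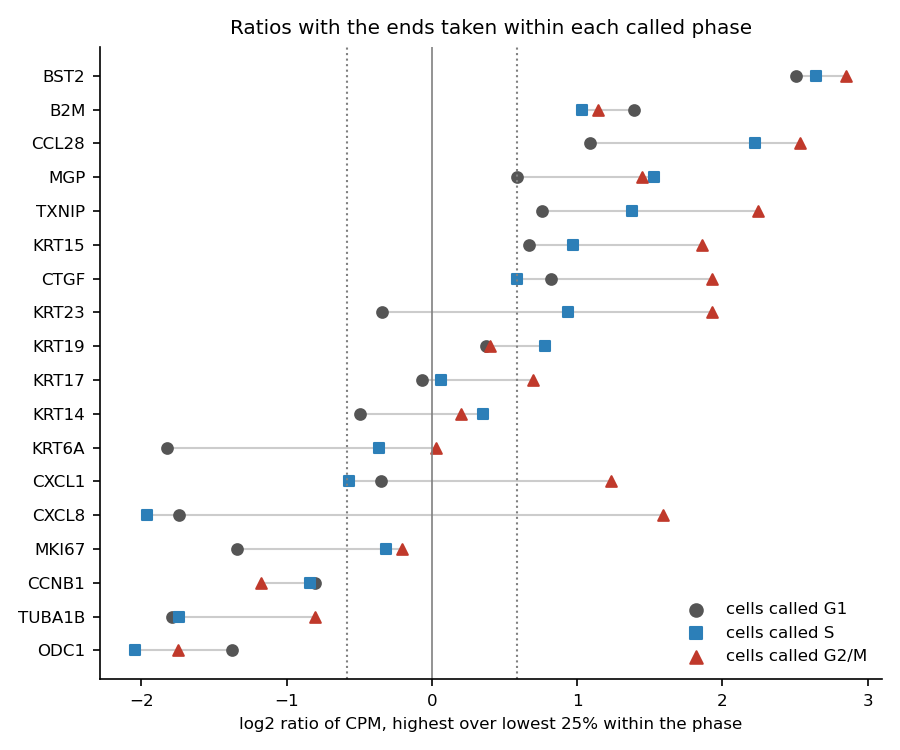
Log2 ratio of CPM (x axis), highest over lowest 25% formed within the paclitaxel 24 h cells called G1, S or G2/M, for 18 genes (rows); dotted lines mark 1.5-fold. BST2, B2M, CCL28 and TXNIP lie to the right of 0 in all 3 phases, whereas CXCL8 is at -1.74 and -1.96 in G1 and S cells and at 1.59 in G2/M cells.

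Some genes tied to cell attachment and shape also differed between early responders and low cells. Of 16 measured genes of the YAP type, which respond to the cytoskeleton and cell spreading, 6 were higher and 1 lower in early responders (median 0.21). CTGF, a secreted matricellular protein, stood at 111 CPM in early responders and 29.8 CPM in low cells (1.90, 1.75 to 2.05). ANKRD1, a second gene of this type, had a log2 ratio of 2.07, with 1 cell holding 19.4% of its UMIs in low cells. With cells ranked within phases and pooled, CTGF had 0.99 and ANKRD1 0.82. In single phases ANKRD1 had 0.50 in G1, 0.75 in S and 1.74 in G2/M cells, and CTGF had 0.82, 0.59 and 1.93. AXL, a receptor tyrosine kinase, was the 1 lower gene, at 55.5 CPM in early responders and 119 CPM in low cells (-1.10). Of 17 measured immediate-early genes 6 were higher and 1 lower (median 0.28), or 4 higher and 1 lower of the 15 with at least 10 CPM in both groups of cells. FOS and FOSB, subunits of the AP-1 factor, had log2 ratios of 1.83 and 1.75 but were under 10 CPM in low cells, and FOSL1, a related subunit, had -1.63.

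Of 9 measured genes of immune checkpoints and NK cell ligands 2 were higher and 1 lower in early responders (median -0.21). VTCN1, the checkpoint ligand B7-H4, stood at 28.1 CPM in early responders and 5.21 CPM in low cells (2.43), beside 31.6 CPM in DMSO at 72 h and 3.84 CPM in DMSO at 24 h, and passed the minimum only through the early responders. MICB, a ligand of the NKG2D receptor, had a log2 ratio of -0.76, or -0.38 with cells ranked within phases. RARRES1, a retinoid-responsive gene outside all lists, stood at 103 CPM in early responders and 22.4 CPM in low cells (2.21). The nuclear RNA NEAT1 had a log2 ratio of 1.14 and MALAT1 of 0.68, the second falling short of 1.5-fold in 6 alternatives.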

How the data were processed

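Raw UMI counts per gene symbol and cell barcode were deposited by the authors for each library, unnormalized. Cell Ranger 2.0 and GRCh38 are named per the submitters' processing notes. Criteria for calling cells are not given in the sources used here. The ranking, gene lists and genes were chosen with earlier results of these data known. UMIs were summed over early responders and over low cells and scaled to CPM. Ratios carry exact Poisson intervals and shares Clopper-Pearson intervals (95%). With 1 library per group, cells are not replicates and no test was run. Phases were called with scanpy 1.11.5 in cells thinned to 20000 UMIs, from 42 S phase and 54 G2/M genes. Scrublet marked 1 cell, an early responder, as a doublet, and it was kept. Genes named were the 12 highest and 12 lowest ratios at a mean of at least 50 CPM, the 4 largest ratios of each list, all measured keratins, chemokines and late-culture genes, and 10 others; WARS was named after its value was seen, and some genes under this rule are not reported here. The computation of ratios was tested on simulated data with known fold changes, which compares no groups of cells. TMM factors came from edgeR 4.0.16 and gene coordinates from GENCODE release 29.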

Additional observations from a re-analysis of the deposited data

Results flagged for a closer look

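The neutrophil-attracting chemokines CXCL1 and CXCL8 had opposite signs in different libraries. Their median log2 ratio, highest over lowest 25% of cells, was -1.11 in paclitaxel at 24 h and 0.75 in DMSO at 72 h. CXCL8 alone had -1.52 in paclitaxel at 24 h and 1.14 in DMSO at 72 h, where its level in the whole library was only 15.9 CPM. Each value comes from 1 library, and the difference between libraries was not tested.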

How the results depend on the processing

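No paired analysis was possible because each group is 1 library. Results were recomputed under 18 alternatives, of which ranking within classes of ribosomal share and leaving out shared barcodes were chosen after seeing the data, as were the values of each phase taken by itself. The medians of late-culture genes (0.28 to 0.84) and luminal keratins (0.15 to 0.88) stayed positive under all 18. Single phases are not among the 18, and there the late-culture median was 0.01 in G1 cells and the luminal keratin median -0.02 in G2/M cells. The 700 higher genes became 1686 with totals without ribosomal and mitochondrial genes, 156 at a mean of at least 50 CPM and 3022 with no minimum. The 1156 lower genes became 530 at 50 CPM, 2299 with no minimum, 583 with cells ranked within called phases and 669 within classes of ribosomal share. With cells ranked within called phases, the medians were -0.53 for G2/M genes, -0.0080 for S phase genes and, with a change of sign, 0.0282 for neutrophil-attracting chemokines, and CXCL1 reversed to 0.28. With cells ranked by IFI6 alone, the medians were -1.03 for G2/M genes, -0.0659 for basal keratins and -0.29 for neutrophil-attracting chemokines, and LIF, a cytokine gene, reversed to -0.12. Ranked by ISG15 alone the chemokine median was -1.68, within ribosomal classes -0.64 and without ribosomal and mitochondrial totals -1.53, where the interferon-stimulated median was 1.64. With the top and lowest 10%, the G2/M median was -2.08, the G1 share 65.3% and IL32 reversed to 0.0319. The cause of these changes was not tested. Of 114 named genes past 1.5-fold, 81 stayed past it in every setting. Within called phases 23 fell short, and 15 did so without cells above 100000 UMIs. Many named genes were chosen for their large ratios in these same data. A changed minimum level cannot move the ratio of a gene. The filters on genes and mitochondrial share, on doublets and on shared barcodes left out only 1, 1 and 4 cells. A gene with 0 UMIs would be under 0.251 CPM in early responders, allowing 3 counts.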
